A study of Gallus gallus with 45 samples.

Results

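Jejunal gene expression of broiler line Y was compared with that of line X at day 4 after hatch. The comparison rested on 15 of the 45 arrays of the study, chosen by the line, age and pool number in their labels, with 8 pools of line X (pools 9 to 16) and 7 pools of line Y (the same numbers without pool 14). Each array held the RNA of whole jejunal tissue from 1 pool of 10 birds, so that differences between single birds cannot be seen. The birds of both lines were untreated broiler chickens kept in floor pens with free access to feed and water, and their sex is not given in the sources used here. Both lines came from the same hatchery and grew up side by side, each in pens of its own, and line and pen therefore cannot be told apart. Pools 2 to 8 of line Y carry 4 days in their titles but belong to day 0 and were not part of the day 4 groups. Each of the 6 groups of line and age lay on a slide of its own, which means that slide and group cannot be told apart.

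In the days after hatch the jejunum of a chick turns from the uptake of yolk to the digestion of feed. Its villi lengthen, microbes settle in the lumen, and the first defence comes from innate factors such as lysozyme and avian beta-defensins while T and B cells move into the mucosa. The chicken MHC, or B complex, is compact and carries the class I genes (BF), the class II genes (BLB) and the BG genes, an avian family of membrane proteins related to butyrophilins. Several of its haplotypes segregate in broilers. In whole tissue, fewer cells of a type and less RNA per cell cannot be told apart.

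All levels are deposited log2 intensities of microarray probes, normalised between arrays, and all differences are log2 differences, line Y less line X, with the standard error of limma. To be called different, a probe needed a Benjamini-Hochberg adjusted p below 0.05 in limma together with a fold change beyond 1.3 in either direction. The median raw signal of an array was 141 to 195 in line X and 136 to 199 in line Y, with 61.8 to 74.6 % and 65.5 to 77.8 % of the probes well above background. Arrays of the same line correlated with each other at 0.981 or more. Of the marker probes of enterocytes, the absorptive cells of the villus, 32 of 33 were well above background in all 15 pools, and their mean level was 12.42 to 12.70 in the pools of line X and 12.32 to 12.77 in those of line Y. The labelled tissue was thus also seen in its markers. VIL1 (villin) and FABP2 (the intestinal fatty acid binding protein) lay at the top of the scale, with means between 15.99 and 16.00 in both lines, where a difference can hardly be measured.

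Of 25527 probes that passed the filter on dim probes, 5952 (23.3 %) were called, with 3077 (12.1 %) higher and 2875 (11.3 %) lower in line Y. The balance of the directions depended on the settings, most of all on the fold limit. Higher calls made up 51.7 % of all calls, and 50 % without the filter. The share was 51.4 % with probes well above background in every pool of a day 4 group. With the dim limit required in all 45 arrays it was 42.5 %. It was 57.7 % with scaling to the 75th percentile and 82.5 % with a log2 difference over 1. Of the higher calls, 1394 came from probes that passed only through line Y among the day 4 groups, against 707 of the lower calls, whereas the probes that passed through both lines at day 4 held 497 higher and 669 lower calls. Line X pool 12 had the highest dim limit of the day 4 arrays, and a probe had to exceed it to pass through line X. This split therefore also sorts the probes by brightness. With processed signals scaled to their 75th percentile, 3341 probes were higher and 2449 lower. Among the probes with a gene symbol, 871 of 7824 (11.1 %) were higher and 765 (9.78 %) lower. For the 2372 genes with at least 2 such probes, the probes of a gene often did not move together. At least 1 probe was called in 1007 of these genes, and in 911 of them another probe of the gene was not called in the same direction. The median distance between the lowest and the highest difference within a gene was 0.33 on the log2 scale, 249 genes had a distance over 1, and 71 genes (2.99 %) held probes called in opposite directions. Every probe was higher in line Y in 44 genes (1.85 %) and lower in 52 genes (2.19 %). These agreeing genes open the description below, since their difference does not hang on a single probe. The lists that follow also hold genes with 1 kept probe or with probes that disagreed.

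**Figure D1:**
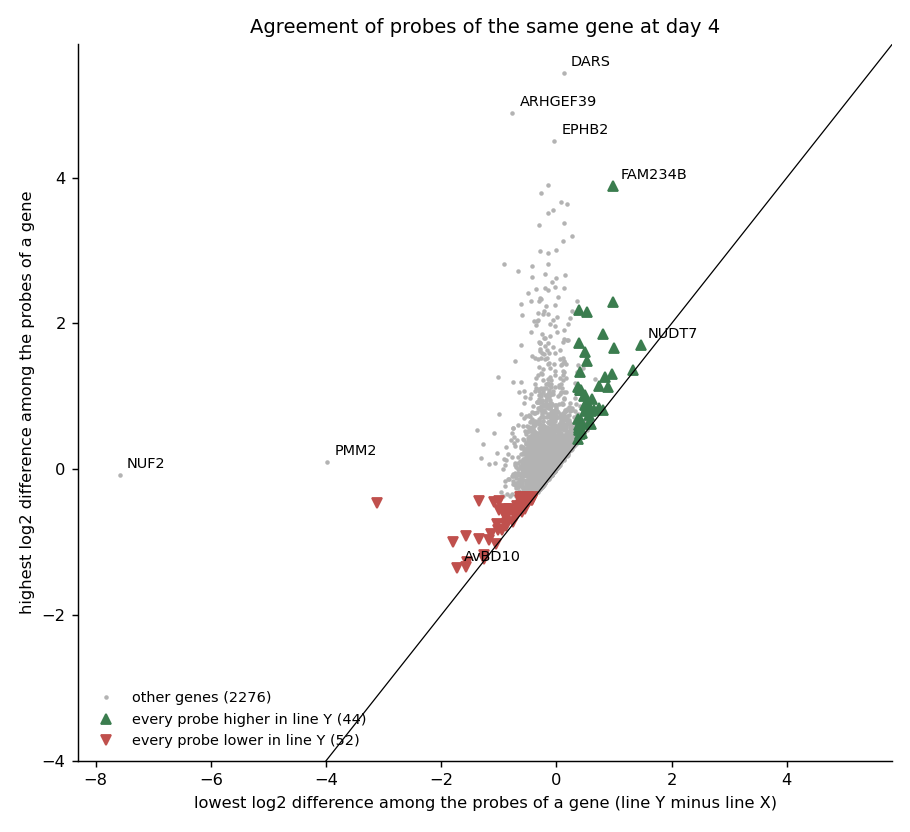
Lowest against highest log2 difference (line Y minus line X, day 4) among the probes of each of 2372 genes with at least 2 kept probes, with equal values on the diagonal line. The 44 genes higher in every probe have both values above zero and the 52 lower genes have both below zero. Some of them, such as FAM234B, lie far from the diagonal, and so do NUF2, PMM2, DARS, ARHGEF39 and EPHB2.

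In 15 of the 44 higher genes and in 10 of the 52 lower ones the pools of the lines did not overlap for any probe. Over all kept probes, called or not, the pools of line Y all lay above those of line X for 7.2 % (1839 probes, beside 3077 called higher). They all lay below for 4.77 % (1218 probes, beside 2875 called lower). The agreeing genes had been chosen by their calls, so these shares over all probes do not measure an excess among them. Among these genes, NUDT7, which encodes a coenzyme A diphosphatase of peroxisomes, was higher in line Y in both probes. On its first probe the pools of line X ranged between 6.26 and 7.47 (median 6.63) and those of line Y between 8.19 and 8.58 (median 8.45), a difference of 1.70 ± 0.23 (SE, limma adjusted p = 7.9e-08). On the second probe line X ranged between 5.30 and 6.31 (median 6.06) and line Y between 7.07 and 7.79 (median 7.31), a difference of 1.46 ± 0.17 (limma adjusted p = 3.95e-09). Every pool of line Y thus stood above every pool of line X on both probes. NUDT19, which encodes an enzyme of the same activity, was higher by 1.26 ± 0.09 and 0.84 ± 0.14 (limma adjusted p = 1.95e-15 and 5.78e-06).

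RUVBL1, an ATPase of chromatin remodelling complexes, was higher in all 3 probes. Its first probe ranged between 8.12 and 8.79 in line X (median 8.23) and between 9.16 and 9.39 in line Y (median 9.36). The second ranged between 6.56 and 7.29 (median 6.79) and between 8.10 and 8.64 (median 8.44), and the third between 6.31 and 6.99 (median 6.68) and between 7.52 and 8.72 (median 8.49). The differences were 1.00 ± 0.10, 1.62 ± 0.16 and 1.66 ± 0.13 (limma adjusted p of 1.64e-11, 3.11e-11 and 8.75e-14), and on none of the probes did the lines overlap. PRLR, the receptor of prolactin, was the gene with most probes in this group. Its 4 probes differed by 1.14 ± 0.14, 1.02 ± 0.11, 0.74 ± 0.13 and 0.86 ± 0.11 (limma adjusted p of 4.12e-09, 3.91e-10, 1.86e-05 and 2.81e-08). On the brightest of them line X ranged between 10.65 and 11.72 (median 11.10) and line Y between 12.15 and 12.61 (median 12.38), so that the lines were apart. RAP1GAP3, named as an activator of the GTPase activity of Rap1, was higher in its 3 kept probes by 0.73 ± 0.08, 0.49 ± 0.11 and 1.01 ± 0.08 (limma adjusted p of 2.43e-10, 2.87e-04 and 1.18e-14). It has 5 probes on the array, and with the dim ones it was no longer called in every probe, both without the filter (median of the probes 0.49) and when the background flag of the scanner software, in every pool of a day 4 group, was the filter (0.61). An offset of 50 in the background correction ended the call as well (0.64).

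CHIR-IG1-5 belongs to the chicken immunoglobulin-like receptors of leukocytes, a large family of similar genes whose transcripts a probe may not keep apart. Its probes ranged between 6.94 and 8.05 (median 7.47) and between 11.11 and 12.49 in line X (median 11.99), against 8.39 to 9.20 (median 8.79) and 12.60 to 14.26 (median 13.21) in line Y. The differences of 1.36 ± 0.16 and 1.33 ± 0.30 (limma adjusted p = 1.95e-09 and 5.25e-04) were close in size, and the lines were apart on both probes. At day 16, however, the same probes were called in opposite directions, with differences of 1.53 and -1.40. Only 2 of its 4 array probes were kept, and the call was lost without the filter and with the background flag as the filter (median of the probes 0.75 in both, against 1.35). For IBA57, a factor of iron-sulfur cluster assembly in mitochondria, the differences were 2.29 ± 0.12 and 0.98 ± 0.13, and for TRAP1, the mitochondrial form of the HSP90 chaperones, 0.93 ± 0.30 and 0.53 ± 0.09. Both genes kept 2 of 3 array probes and lost their calls under the same filters, with medians of 0.98 against 1.63 for IBA57 and 0.53 against 0.73 for TRAP1. C12orf65, a release factor of mitochondrial translation in humans, was higher by 0.53 ± 0.09 and 1.48 ± 0.11. PNAT10, an arylamine N-acetyltransferase, was higher by 2.15 ± 0.16, on a probe that the scanner flagged as above background in only 4 of the 8 line X pools, and by 0.52 ± 0.08, and MCCC2L by 0.74 ± 0.08 and 0.57 ± 0.08. The largest limma adjusted p among the probes of these 5 genes was 0.013, for TRAP1. Where the dim limit was required in all 45 arrays, the medians of C12orf65 and PNAT10 came to 0.53 and 0.52, since only 1 probe of each was left, and an offset of 50 gave PNAT10 a median of 0.88. NMRAL1, a sensor of NADPH in humans, and CCDC127 were higher by 0.61 to 1.3 over their probes, without overlap of the pools.

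FAM234B and PDCD2 were also higher in both kept probes, but by very different amounts. In none of the 8 line X pools did the dimmer FAM234B probe stand well above background, and it ranged there between 2.87 and 4.06 (median 3.47), against 7.22 to 7.59 in line Y (median 7.44). This makes it at least 7.4-fold higher, taking each pool of line X at no less than the dimmest signal that was well above background on its array, with 14.8-fold as measured. The other probe differed by 0.98 ± 0.10. FAM234B kept 2 of 5 array probes, and its call was lost without the filter (median of the probes 0.08, against 2.43), while an offset of 50 gave 1.32. For PDCD2 the differences were 0.39 ± 0.08 and 1.73 ± 0.31 (limma adjusted p = 1.02e-04 and 1.83e-05). The smaller one lay near the limit on fold change, and the gene lost its call without any of pools 13 and 15 of line X or pools 10, 12 and 13 of line Y, with a median of the probes of 1.04 to 1.1, and with an offset of 50 (0.94).

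Among the 10 genes that were lower without overlap, SRL (sarcalumenin, a calcium-binding protein of the sarcoplasmic reticulum) had the largest difference shared by its probes. Its first probe ranged between 8.53 and 9.20 in line X (median 8.85) and between 7.12 and 7.39 in line Y (median 7.31), a difference of -1.57 ± 0.10 (limma adjusted p = 1.66e-16). The second ranged between 6.81 and 7.66 (median 7.22) and between 5.65 and 6.78 (median 5.71), a difference of -1.33 ± 0.15 (limma adjusted p = 1.68e-09), with pool 13 of line Y just under the lowest pool of line X. SLC24A2, an exchanger of sodium and potassium for calcium, ranged between 8.53 and 9.42 (median 8.75) and between 8.52 and 8.99 in line X (median 8.83). In line Y it ranged between 7.20 and 7.92 (median 7.56) and between 6.94 and 7.56 (median 7.26), which gave differences of -1.27 ± 0.13 and -1.55 ± 0.11 (limma adjusted p = 7.8e-11 and 5.71e-16). PKD2, the cation channel polycystin-2, differed by -1.14 ± 0.12 and -0.90 ± 0.11. All pools of line Y lay below those of line X for each of these genes.

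TALDO1, the transaldolase of the pentose phosphate pathway, ranged between 13.71 and 14.27 (median 13.88) and between 12.09 and 12.70 in line X (median 12.31), and between 12.80 and 13.61 (median 13.01) and between 10.88 and 11.84 in line Y (median 11.24). The differences were -0.84 ± 0.11 and -1.01 ± 0.12 (limma adjusted p = 5.45e-08 and 4.79e-09), again without overlap. CCN3, a matrix-associated signalling protein, was lower in 3 probes by differences of -0.76 ± 0.12, -1.03 ± 0.16 and -0.94 ± 0.15 (largest limma adjusted p = 3.6e-06). CYP21A1, the steroid 21-hydroxylase, differed by -0.94 ± 0.16 and -0.83 ± 0.17, and LGALS1B, a galectin, by -0.71 ± 0.11 and -0.65 ± 0.12. PWP1, which acts in ribosome biogenesis, differed by -0.43 ± 0.08 and -1.34 ± 0.14, of which the former alone was left with the limit in all 45 arrays. TNFRSF1A, the main receptor of tumour necrosis factor, differed by -0.46 ± 0.12 and -0.51 ± 0.11 (limma adjusted p = 2.46e-03 and 1.85e-04), and its call ended when the processed signals were scaled to their 75th percentile (median of the probes -0.32).

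**Figure D2:**
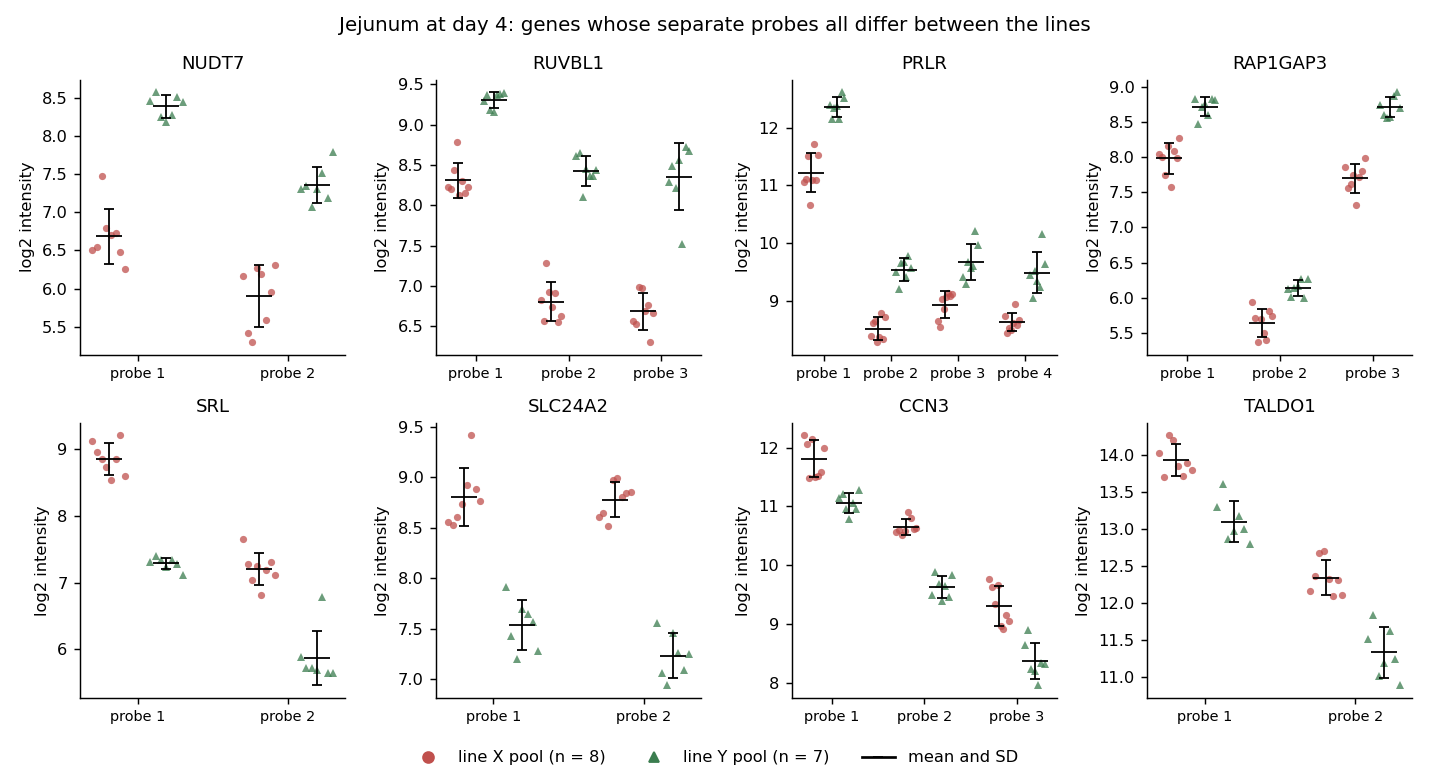
Log2 intensity of each probe in every day 4 pool of line X (circles, n = 8) and line Y (triangles, n = 7) for 4 higher and 4 lower genes, with the mean and SD in black. In all 8 genes, the pools of the lines are apart on each probe, for example at 8.53 to 9.20 in line X against 7.12 to 7.39 in line Y for the first probe of SRL.

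ENS-1, an endogenous retroviral gene first known from chicken embryonic stem cells, completed this group. Its kept probes ranged between 10.86 and 12.03 (median 11.41) and between 8.56 and 9.63 in line X (median 9.03), and between 9.96 and 10.76 (median 10.06) and between 7.30 and 8.44 in line Y (median 8.00). The differences were -1.25 ± 0.21 and -1.17 ± 0.23 (limma adjusted p = 7.29e-06 and 6.0e-05), with the pools apart. Only 2 of its 5 array probes were kept, and the call was lost without the filter (median of the probes -0.45, against -1.21) and with the background flag as the filter (-0.81). The RefSeq table places ENS-1 on the W chromosome, which only hens carry. Of the W-linked genes listed as markers, HINTW was called in none of its 7 probes (lowest limma adjusted p = 0.0743, difference of -0.55 ± 0.25), SPIN1L in none of 3, and HNRNPKL was higher in line Y in 1 of 3. The mean level of these 13 W-linked probes overlapped between the lines, at 12.16 to 12.84 in line X and 11.93 to 12.99 in line Y. The part of the sex mix in the ENS-1 difference was not tested.

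Genes of innate defence were called lower more often than higher. Of 34 kept genes of innate sensing and antimicrobial factors, 6 were lower in every probe and 2 higher, against 5.16 and 5.7 % of all 3740 named genes, and 22 % of their 59 probes were called lower against 9.78 % of all named probes, while 5.08 % were higher against 11.1 %. Their median difference was -0.19, against -0.04 over all named genes. AvBD10, an avian beta-defensin, showed the largest differences, with -1.35 ± 0.23, -1.66 ± 0.24 and -1.73 ± 0.25 in its 3 probes (largest limma adjusted p = 6.59e-06). On the probe with the largest difference, line X ranged between 9.33 and 11.19 (median 10.60) and line Y between 7.14 and 9.57 (median 9.03), so that the lines overlapped slightly, and pool 16 of line Y was the lowest on each of the probes. LYZ (lysozyme) ranged between 12.61 and 13.62 in line X (median 13.10) and between 11.73 and 12.50 in line Y (median 12.24) on its brighter probe, a difference of -0.97 ± 0.15, and its dimmer probe differed by -1.18 ± 0.20 (limma adjusted p = 1.54e-06 and 1.08e-05). The lines were apart on the brighter probe only.

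Single probes represented the other lower members of this list. TLR3, the receptor of double-stranded RNA, differed by -0.50 ± 0.12, and PIGR, the receptor that carries antibodies across the epithelium, by -0.55 ± 0.11. CATHB1, a cathelicidin, differed by -0.69 ± 0.17 and NCF1C, named after a subunit of the phagocyte oxidase, by -0.70 ± 0.15 (limma adjusted p of these 4 genes at most 0.00122). In the opposite direction, the complement regulator CFI was higher by 0.49 ± 0.14 and 1.01 ± 0.11, and the lectin COLEC11 by 0.48 ± 0.15 in a single probe. The CFI call was lost with an offset of 50 (0.59), and that of COLEC11, with 1 of 2 array probes kept, without the filter and with the background flag (0.49). Of the 19 kept genes of the interferon response, 3 were lower in every probe and 0 higher. Of their 36 probes 25.0 % were lower and 2.78 % higher, against 9.78 and 11.1 % of all named probes. SOCS1, a feedback inhibitor of cytokine signalling, differed by -0.76 ± 0.21 and -0.73 ± 0.21 (not called with the day 4 arrays fitted alone), IFITM5 by -0.47 ± 0.11 and IRF9 by -0.47 ± 0.18. The macrophage and heterophil markers share LYZ with the list of innate sensing and antimicrobial factors. Of their 17 probes 17.6 % were lower, both LYZ probes among them, and 0 higher. The mean level of these markers overlapped between lines, at 9.51 to 10.44 in line X and 9.37 to 10.37 in line Y. Their part in these differences was not tested.

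**Figure D3:**
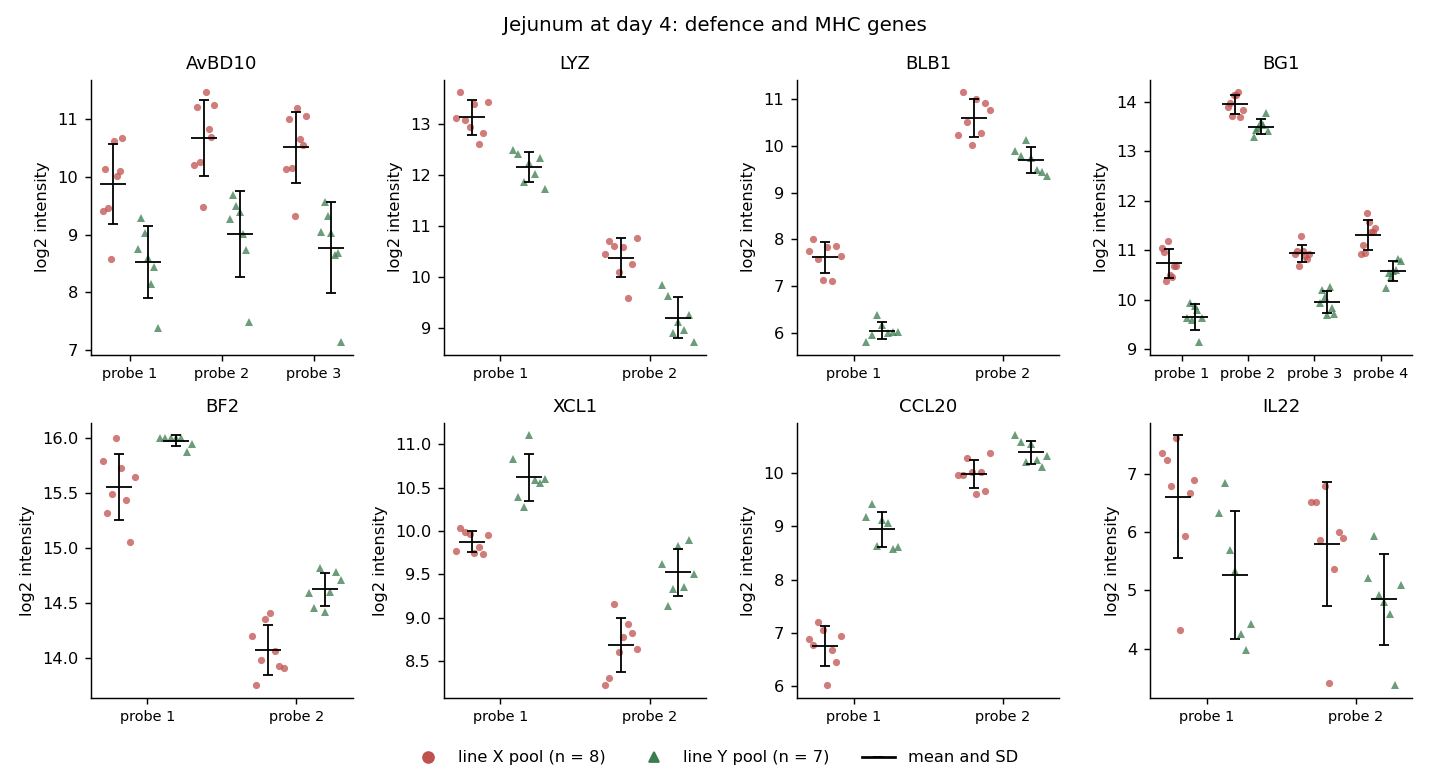
Log2 intensity of each probe in every day 4 pool of line X (circles, n = 8) and line Y (triangles, n = 7) for 8 defence and MHC genes, with the mean and SD in black. AvBD10, LYZ, BLB1 and BG1 lie lower and BF2, XCL1 and CCL20 higher in line Y, and the IL22 pools overlap widely, between 3.97 and 6.84 in line Y against 4.33 to 7.62 in line X on the first probe.

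The MHC genes did not move in a common direction. The class II gene BLB1 was lower in line Y. Its first probe ranged between 7.12 and 8.00 in line X (median 7.71) and between 5.80 and 6.39 in line Y (median 6.02), a difference of -1.57 ± 0.15 (limma adjusted p = 9.77e-12), whereas the second ranged between 10.03 and 11.15 (median 10.63) and between 9.37 and 10.13 (median 9.74), a difference of -0.92 ± 0.17 (limma adjusted p = 3.28e-05). The pools were apart on the first probe and overlapped slightly on the second. BG1 was lower in its 4 probes, with differences of -1.08 ± 0.12, -0.45 ± 0.11, -0.98 ± 0.15 and -0.74 ± 0.15 (largest limma adjusted p = 7.21e-04), and the lines overlapped only on the brightest. The fifth BG1 probe on the array was too dim for the filter, and with it the call was lost (median -0.74). BG8, a further BG gene that was picked after its values were seen, was lower in 3 kept probes by differences of -1.80 to -0.99.

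The class I gene BF2 was higher in line Y. Its unsaturated probe ranged between 13.75 and 14.41 in line X (median 14.02) and between 14.41 and 14.81 in line Y (median 14.60), a difference of 0.55 ± 0.11 (limma adjusted p = 1.24e-04). The other probe, with a difference of 0.42 ± 0.10, was saturated in 5 of 7 pools of line Y and in 1 of 8 pools of line X. BF2 lost its call without pool 15 of line X (median of the probes 0.44) and when the processed signals were scaled to their 75th percentile (0.37). BF1, the other class I gene, was higher in 2 of 5 probes, by 0.54 ± 0.12 and 0.42 ± 0.13. DMB2, which helps to load class II molecules, differed by -0.69 ± 0.11 and CTSB, a lysosomal protease, by -0.53 ± 0.12, each in a single probe. Over the 16 kept genes of MHC and antigen presentation, 1 was higher and 4 were lower in every probe. Of their 34 probes 17.6 % were higher and 26.5 % lower, against 11.1 and 9.78 % of all named probes. On the chromosome that holds BF2, 17 of 47 named probes (36.2 %) were lower and 7 (14.9 %) higher, a count made after the data had been seen. Of its 21 genes, 6 were lower and 3 higher in every probe. Several of the lower probes share a gene, with 4 each from BG1 and KIFC1. Members of the BF, BLB and BG families are similar in sequence and vary between haplotypes, so that a probe may bind the transcripts of several of them unequally.

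Of the 36 kept genes of chemokines, cytokines and their receptors, 2 were higher and 4 lower in every probe, with 10.8 and 13.8 % of 65 probes called, near the shares of all named probes. XCL1, a chemokine that attracts T cells and dendritic cells, was higher by 0.74 ± 0.14 and 0.84 ± 0.24 (limma adjusted p = 4.77e-05 and 5.64e-03). Its brighter probe ranged between 9.74 and 10.04 in line X (median 9.88) and between 10.28 and 11.10 in line Y (median 10.59), without overlap. CCL20, which attracts lymphocytes and dendritic cells to the mucosa, was higher by 2.19 ± 0.17 on a probe that ranged between 6.02 and 7.20 in line X (median 6.83) and between 8.58 and 9.42 in line Y (median 9.06) (limma adjusted p = 6.97e-14). Its brighter probe differed by 0.40 ± 0.13 (limma adjusted p = 0.014) with overlapping pools, and the gene lost its call without any of pools 13 and 15 of line X or pools 9, 10 and 12 of line Y, with a median of the probes of 1.21 to 1.27. CCR8, a chemokine receptor of T cells, was lower by differences of -1.05 ± 0.19 and -1.03 ± 0.18 (limma adjusted p = 1.84e-05 and 9.91e-06), a call lost without the filter (-1.03), since 1 of its 3 array probes was dim.

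IL22, a cytokine that acts on epithelial cells, was lower by differences of -1.34 ± 0.37 and -0.95 ± 0.33 (limma adjusted p = 3.35e-03 and 0.0184). Its pools spread widely. On the first probe, line X ranged between 4.33 and 7.62 (median 6.84) with pool 13 far below the rest, and line Y between 3.97 and 6.84 (median 5.34), where 4 of 7 pools were well above background. The call was lost without pool 12 of line X or pool 15 of line Y (median of the probes -1.0 and -0.91) and with the day 4 arrays fitted alone, and an offset of 50 gave a median of -0.60, against -1.14. Among T cell markers, the receptor chain CD247 was higher by 0.80 ± 0.24 and 0.50 ± 0.11, CD8BP by 0.72 ± 0.15 and the granzyme GZMA by 0.45 ± 0.16, whereas CTLA4, an inhibitory receptor, differed by -0.49 ± 0.18. Of the 15 T cell probes 40.0 % were higher and 6.67 % lower, against 11.1 and 9.78 % of all named probes. Of the 9 T cell genes 4 had no call. The mean level of the T cell probes overlapped, at 9.80 to 10.16 in line X and 10.03 to 10.49 in line Y. The CTLA4 call was lost without any of 5 pools, namely 12 and 16 of line X and 12, 15 and 16 of line Y, with values of -0.47 to -0.42, and with an offset of 50 (-0.33). Without the filter, the calls of CD247 (median of the probes 0.50) and CD8BP (0.45) were lost. None of the 12 B cell probes was called higher and 16.7 % were called lower, and 5 of the 7 B cell genes had no call.

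Lists of functions were then set against all named probes, of which 11.1 % were higher and 9.78 % lower. Synthesis of cholesterol and fatty acids leaned to lower values, with 20.4 % of 49 probes lower, 8.16 % higher and a median difference per gene of -0.15. FDFT1, the squalene synthase, ranged between 14.61 and 15.10 in line X (median 14.91) and between 14.13 and 14.41 in line Y (median 14.29) on its bright probe, a difference of -0.63 ± 0.08 (limma adjusted p = 1.55e-08) without overlap. Its dim probe differed by -0.42 ± 0.16 (limma adjusted p = 0.0335), and the gene lost its call without any of pools 9, 11 and 15 of line X or 12, 15 and 16 of line Y (-0.51 to -0.48) and with the 75th percentile scaling (-0.43). SQLE, the squalene epoxidase, differed by -0.42 ± 0.12, ACACA, the acetyl-CoA carboxylase, by -0.56 ± 0.11, and STARD4, a carrier of cholesterol, by -0.49 ± 0.13 and -0.38 ± 0.15. The STARD4 call was lost without pools 9, 11, 14, 15 or 16 of line X or 10, 11, 12 or 13 of line Y (-0.43 to -0.38), with pool number as a block (-0.42) and without the filter (-0.44). The malic enzyme ME1, which supplies NADPH for fatty acid synthesis, went the other way, at 10.26 to 10.97 in line X (median 10.56) and 11.01 to 11.75 in line Y (median 11.54), a difference of 0.89 ± 0.12 (limma adjusted p = 9.11e-08).

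Xenobiotic and glutathione metabolism had the largest share of higher probes among the 23 lists of functions, with 21 % of 81 probes higher and 12.3 % lower. The median difference was 0.11 per gene but only 0.01 over the probes. AHR1A, an aryl hydrocarbon receptor, was higher by 0.87 ± 0.09 and the superoxide dismutase SOD1 by 0.63 ± 0.09, each in a single probe without overlap of the pools (limma adjusted p = 1.26e-10 and 2.33e-07). The glutathione genes GCLM and GPX7 were higher by 0.46 ± 0.09 and 0.51 ± 0.12, each in 1 probe. In the other direction, GCLC was lower in 2 of 4 probes and higher in 0 (median of the probes -0.33), and TXNRD1 was lower in 2 of 3 (-0.46). GSTK1, a glutathione transferase, differed by -0.60 ± 0.08 (-0.40 with the 75th percentile scaling), and the epoxide hydrolase EPHX2 by -0.56 ± 0.14 and -0.52 ± 0.20, a call that was lost without any of pools 10 and 15 of line X or 10 and 12 of line Y (-0.51 to -0.44). Genes of the cytoskeleton and microtubules had 15.2 % of 132 probes higher and 4.55 % lower. Of its 50 genes, DCTN5, a dynactin subunit, was the only one with several kept probes all higher, by 0.38 ± 0.09 to 0.57 ± 0.09, and its call ended without any of 6 pools (9, 10 and 12 of line X and 9, 15 and 16 of line Y, 0.42 to 0.51), with the 75th percentile scaling (0.46) and with an offset of 50 (0.44).

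Initiation and elongation factors of translation had 12.5 % of 88 probes higher and 2.27 % lower, with a median difference of -0.02. EIF2AK3, a kinase that slows initiation under stress of the endoplasmic reticulum, was the only factor called in every probe, by 0.41 ± 0.08 in 1 probe, and 9 other factors were higher in some of their probes. The EIF2AK3 call was lost without pool 10 of line X or pool 12 of line Y (0.37 and 0.38) and with the 75th percentile scaling (0.34). Of 65 probes of ribosomal proteins 6.15 % were higher and 0 lower. For the aminoacyl-tRNA synthetases the median difference of the genes was -0.04, whereas the mean level over the probes stood 0.32 higher in line Y, and the DARS probes described below lie in this list. Probes of the mitochondrial ribosome were higher in 10.6 % and lower in 2.13 %, with MRPS6 higher by 1.24 ± 0.08 (range 8.10 to 8.43 in line X and 9.23 to 9.74 in line Y, limma adjusted p = 2.47e-16). Genes of the mitochondrial outer membrane and protein import had 0 of 48 probes higher and 10.4 % lower. Lipases and lipid absorption, with 11.5 % of probes higher and 9.62 % lower, stood close to all named probes. Of 29 probes of brush border enzymes and the microvillus, 17.2 % were lower and 6.9 % higher, with a median difference per gene of -0.05. Among its 14 genes, and picked after their values were seen, MYO1A, a myosin of the microvillus, was lower in 2 of 3 probes, by differences of -0.63 ± 0.16 and -0.70 ± 0.18, beside -0.10 ± 0.14 on the third. CDX1, a transcription factor of the gut epithelium, was also lower in 2 of 3 probes, by differences of -0.57 ± 0.18 and -0.57 ± 0.14 (limma adjusted p of these 4 probes at most 0.0105). Called higher in this list were DPP4 in 1 of 3 probes, by 1.77 (median of the probes 0.27), and PLS1 in its single probe. Of the 14 genes 9 had no call.

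**Figure D4:**
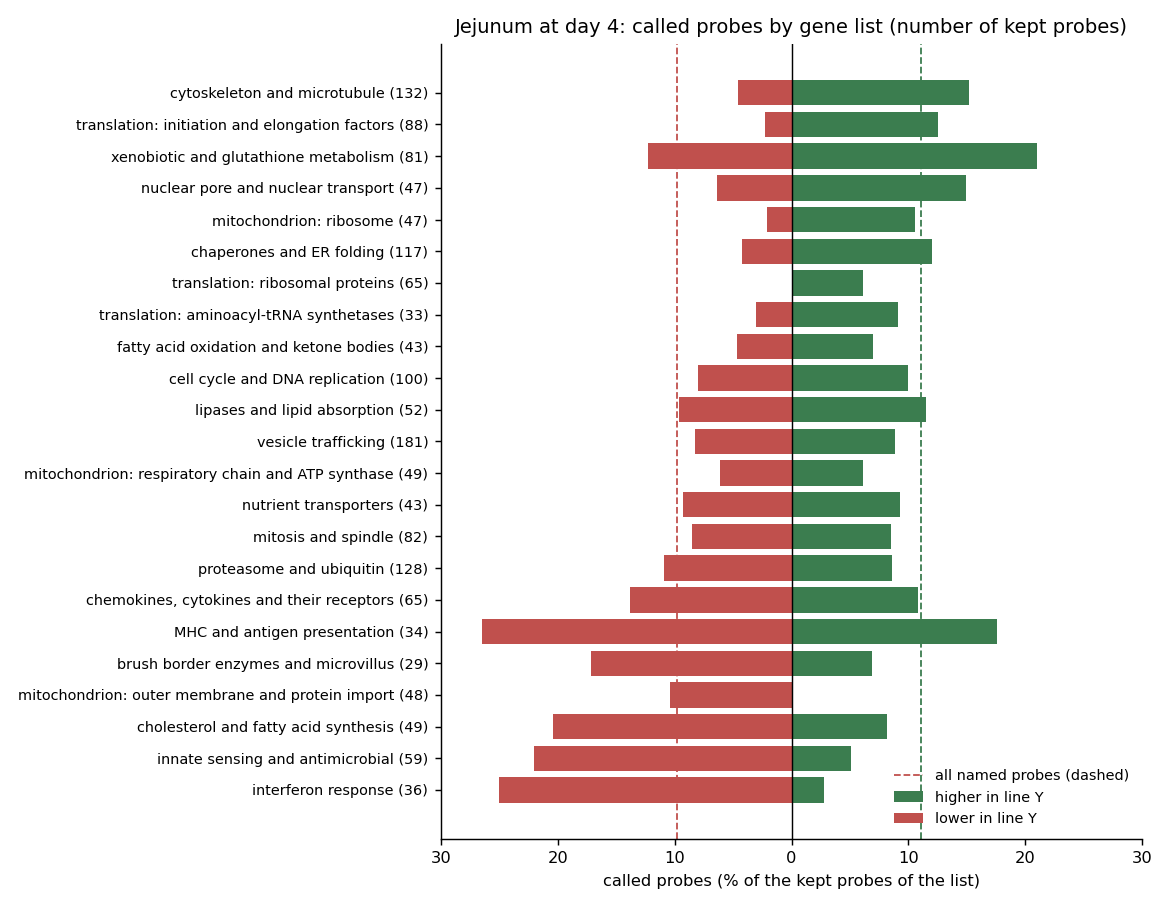
Share of the kept probes of each of 23 gene lists that were called higher (right) or lower (left) in line Y at day 4, in percent, with the number of probes in brackets and the shares over all named probes as dashed lines (11.1 and 9.78 %). MHC genes, interferon response, innate defence and cholesterol synthesis extend furthest on the left, at 26.5 to 20.4 %, and xenobiotic metabolism extends furthest on the right, at 21 %. MHC genes and xenobiotic metabolism are past the dashed lines on both sides.

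Of the genes of cell division, KIFC1, a motor of the mitotic spindle, was lower in all 4 probes, by differences of -0.61 ± 0.13, -0.75 ± 0.23, -0.55 ± 0.14 and -0.87 ± 0.20 (largest limma adjusted p = 7.52e-03), with overlapping pools. The transcription factors E2F4 and E2F6, which control entry into the cell cycle, were higher. E2F4 differed by 0.80 ± 0.25 and 1.85 ± 0.11, and the latter probe lay between 4.77 and 5.44 in line X (median 5.05), well above background in only 4 of these pools, and between 6.65 and 7.35 in line Y (median 6.87). An offset of 50 lowered the difference of E2F4 to 0.83 (median of the probes) and that of E2F6 to 1.24, with the calls kept. E2F6 was higher by 1.97 ± 0.16 in a single probe (range 5.14 to 5.86 in line X and 6.72 to 7.91 in line Y, limma adjusted p = 4.24e-14). Of the 100 probes of cell cycle and DNA replication, 10 % were higher and 8.0 % lower, and of the 82 of mitosis and spindle 8.54 % each.

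Several further members of these lists were called in every kept probe, most of them with a single probe. Higher in line Y were USP33, a deubiquitinase (1.13 ± 0.13), KPNA1, an importin (0.87 ± 0.15), EDEM1, which takes part in the disposal of misfolded glycoproteins (0.86 ± 0.19), CDC16, a subunit of the anaphase promoting complex (0.66 ± 0.09), PLS1, an actin bundler of microvilli (0.64 ± 0.10), SLC11A2, an iron transporter (0.56 ± 0.14), PLA2G4A, a phospholipase (0.51 ± 0.13), RPL37A, a ribosomal protein (0.51 ± 0.11), TUBB1, a tubulin (0.49 ± 0.11), and NCAPH, a condensin subunit (0.47 ± 0.13). BAG1, a co-chaperone, was higher by 0.43 ± 0.09 and 0.67 ± 0.16 in its probes. Lower were CDK5, a kinase (-0.80 ± 0.13), ORC5, of the origin recognition complex (-0.73 ± 0.09), SPAST, which severs microtubules (-0.67 ± 0.12), PSME4, a proteasome activator (-0.50 ± 0.10), and UBE2J1, a ubiquitin-conjugating enzyme (-0.48 ± 0.12). The largest limma adjusted p among these 16 genes was 3.28e-03, for NCAPH. Several of these calls rested on the filter, which had kept 1 probe of a gene with 2 or 3 on the array. Without it the values were 0.29 for KPNA1, 0.07 for NCAPH, -0.42 for ORC5 and -0.39 for PSME4, none of them called, and TUBB1 changed sign (-0.03). With the background flag as the filter, NCAPH came to 0.27 and KPNA1, ORC5 and PSME4 to the same values as without a filter. The PSME4 call was also lost with the 75th percentile scaling (-0.24), and those of NCAPH (0.36) and PLA2G4A (0.37) with an offset of 50.

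The remaining genes of the lists lay so near the limits that their calls hung on single pools. MRPL50 (0.40 ± 0.13 and 1.09 ± 0.21) lost its call without pools 12 or 14 of line X or 9 or 15 of line Y (0.70 to 0.72), with pool number as a block (0.72) and with the 75th percentile scaling (0.75), and with the limit in all 45 arrays only its smaller difference was left. ACTA2, the smooth muscle actin (0.40 ± 0.09), lost it without pools 12 or 14 of line X or 15 of line Y (0.34 to 0.38), with the block (0.38) and with the 75th percentile scaling (0.33). ITIH2 (0.43 ± 0.16) lost it without pools 9 or 12 of line X (0.36 and 0.39) and with an offset of 50 (0.28), and without the filter it changed sign (-0.02). GATA5, an intestinal transcription factor (-0.39 ± 0.14), lost it without pools 11, 13 or 14 of line X or 15 or 16 of line Y (-0.37 to -0.33) and with the block (-0.35). Of the exocyst subunits, EXOC5 (0.41 ± 0.07) lost its call without pool 13 of line X (0.38), EXOC2 (-0.39 ± 0.14) without pools 10, 11 or 12 of line X or 9, 11, 15 or 16 of line Y (-0.37 to -0.33), and EXOC3 (0.38 ± 0.13) without pools 9, 10, 11, 13 or 16 of line X or 9, 10, 11, 15 or 16 of line Y (0.36 to 0.38). Both EXOC2 and EXOC3 also lost their calls with the 75th percentile scaling (-0.35 and 0.305) and an offset of 50 (-0.32 and 0.38), and EXOC2 without the filter and with the background flag (-0.27).

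Among the lists of markers, only that of enteroendocrine cells had a mean level without overlap between the lines. Of the lists of functions, ribosomal proteins and aminoacyl-tRNA synthetases also had every pool of line Y above those of line X. For the ribosomal proteins the mean stood only 0.1 higher, at 15.31 to 15.41 in line X and 15.42 to 15.49 in line Y. Their median difference per gene was -0.004, and 29 of 33 genes had no call. Single probes of RPL37 (3.66, beside 0.09) and RPL13 (2.09, beside 0.01) weigh on the ribosomal mean. The mean level of the 11 enteroendocrine probes was 10.38 to 10.74 in line X and 10.93 to 11.31 in line Y. Of these probes 36.4 % were higher and 0 lower, against 11.1 and 9.78 % of all named probes. The mean stood 0.53 higher in line Y, whereas the median difference of the probes was 0.28. The large differences of single GHRL and CCK probes given next weigh on that mean. GHRL, the gene of ghrelin, was higher by 1.39 ± 0.23 in its single probe, at 5.25 to 5.99 in line X (median 5.76) against 6.52 to 7.50 (median 7.14) in line Y (limma adjusted p = 3.47e-06), and by 0.87 with an offset of 50. CCK (cholecystokinin) differed by 2.62 ± 0.23 on a probe of mean 7.13 in line X and by -0.01 ± 0.12 on its bright probe of mean 13.20, and GCG (proglucagon) by 0.55 ± 0.10 and 0.09 ± 0.11. Of the 10 endothelial probes 30 % were higher and 0 lower, with CDH5 (VE-cadherin) higher by 0.83 ± 0.11. Of the 5 endothelial genes 3 had no call, and the mean level overlapped, at 8.34 to 8.51 in line X and 8.44 to 8.68 in line Y. Of the markers of other tissues, F2 (prothrombin), a liver gene, was higher by 1.51 ± 0.12 in the kept one of its 2 array probes, and its call was lost without the filter (median of the probes 0.19), while the mean liver marker level overlapped, at 7.52 to 8.82 in line X and 7.90 to 8.68 in line Y. Both probes of the pancreatic amylase AMY1A were lower, by differences of -0.88 ± 0.36 and -0.77 ± 0.21, a call that was lost without any pool but 16 of line X and 10 and 12 of line Y (median of the probes -0.89 to -0.73), with pool number as a block (-0.82), without the filter (-0.77), with the 75th percentile scaling (-0.88) and with an offset of 50 (-0.64). The mean level of the 4 pancreas probes was 7.36 to 8.00 in line X and 6.90 to 7.61 in line Y. No enteric neuron probe was called, and none of the 12 listed goblet cell genes was matched on the array.

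Among the agreeing genes outside the lists and the rule for named genes, a few were picked after their values were seen. VDR, the receptor of vitamin D, was lower by differences of -0.59 on both probes, CLDN1, a tight junction protein, by -0.91 and -0.60, and WNT4, a secreted signalling protein, by -0.60 and -0.55. SPP1 (osteopontin) was lower by differences of -0.86 and -0.74 and OVAL (ovalbumin) by -1.25 and -1.23. WIF1, an inhibitor of Wnt signalling, was higher by 0.53 and 0.86, and VEGFD, a growth factor of lymphatic vessels, by 0.49 to 1.61 over its 3 probes.

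In 5 genes the probes disagreed most, with some probes far apart between the lines and others not. A probe of NUF2, a kinetochore protein, ranged between 11.02 and 11.60 in line X (median 11.38) and between 3.18 and 4.63 in line Y (median 3.62), where none of the 7 pools was well above background. It was at least 137-fold lower (limma adjusted p = 2.2e-29), whereas the other NUF2 probe ranged from 11.21 to 11.46 and from 11.12 to 11.60 and differed by -0.08 ± 0.07 (limma adjusted p = 0.36). PMM2, the phosphomannomutase of protein glycosylation, had a probe at least 8.82-fold lower and probes with differences of -0.18 ± 0.17 and 0.10 ± 0.09. For ARHGEF39, a probe at least 25.7-fold higher, dim in all pools of line X, stood beside a probe that was lower, with a difference of -0.77 ± 0.16 (limma adjusted p = 2.24e-04). In DARS, the aspartyl-tRNA synthetase, differences of 5.43 ± 0.20 and 4.87 ± 0.18 stood beside 0.13 ± 0.16, with the former probes flagged as above background in only 4 and 6 of the 8 line X pools. In EPHB2, a receptor that positions cells along the crypt, 4.50 ± 0.19 stood beside -0.04 ± 0.16, and the former probe stood above background by the scanner flag in 1 line X pool of 8, so that its level there was hardly measured. Every one of these large differences was called in the same direction at day 0 and day 16.

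The line difference was also set against that on the other days. It differed between day 4 and day 0 for 5537 probes (21.7 %), above in 2204 (8.63 %) and below in 3333 (13.1 %), and between day 4 and day 16 for 8922 (35 %), above in 3785 (14.8 %) and below in 5137 (20.1 %). Of the 44 genes higher in every probe at day 4, 29 were also higher in every probe at day 0 and 12 at day 16, and of the 52 lower genes 21 and 19. A probe called in the opposite direction was found in 2 of the higher genes at day 0 and 5 at day 16. Among the lower genes, 2 and 9 held such a probe. The shares of all genes called at day 0 and at day 16 were not counted, so these numbers cannot be set against a general rate. In each direction, 10 genes were called in every probe on all 3 days. Over all kept probes, counted singly and not by gene, 1316 (5.16 %) were called in the same direction on every day. LYZ was among the steady genes, with medians of the probes of -1.13, -1.07 and -1.15 at days 0, 4 and 16. The difference of AvBD10 was -1.78 at day 0 and -1.66 at day 4 but -0.02 at day 16, and that of CYP21A1 was -0.89 at day 4 and 0.83 at day 16. For BLB1 the difference was larger later, with -1.24 at day 4 and -3.37 at day 16. The median difference of RUVBL1 was 1.57, 1.62 and 0.05, but its brightest probe was still called higher at day 16, by 0.66, beside -0.03 and 0.05 on the others. RAP1GAP3 was higher by 0.55, 0.73 and 1.63.

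A called difference that went past the differences on both other days in the same direction was rare. Such a difference need not be absent on those days. It was found for 508 probes (1.99 %), of which 117 were higher (0.458 %) and 391 lower (1.53 %). Among genes with at least 2 probes this held in every probe for HPSE and SLC35C2. HPSE (heparanase, which cuts heparan sulfate) differed by -0.82 ± 0.14, -0.79 ± 0.12 and -0.54 ± 0.13 at day 4 (largest limma adjusted p = 1.14e-03), by 0.03 at day 0 and by 0.60 at day 16 as medians of the probes. Its first probe ranged between 9.24 and 10.35 in line X (median 9.67) and between 8.48 and 9.41 in line Y (median 8.97), with overlap. SLC35C2, named as a nucleotide sugar transporter, differed by -0.45 ± 0.14 and -0.49 ± 0.07, against 0.19 at day 0 and 0.46 at day 16, and its day 4 call was lost without pool 15 of line Y (-0.41), with the 75th percentile scaling (-0.43) and with an offset of 50 (-0.38). With slides tied to groups, a change of the difference between days cannot be told apart from an effect of the slides.

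**Figure D5:**
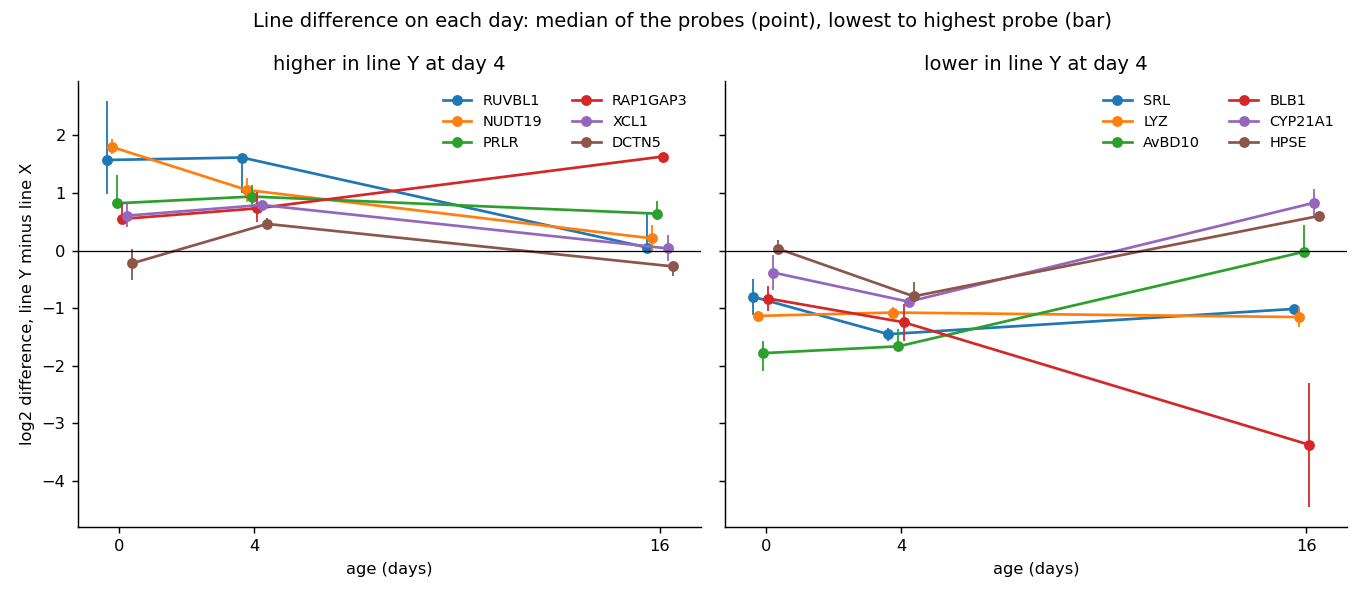
Log2 difference (line Y minus line X) against age in days for 6 genes higher (left) and 6 lower (right) in line Y at day 4, as the median of the probes of a gene (points joined by lines) with a bar from the lowest to the highest probe. LYZ stays near -1.1 on all days and AvBD10 comes to -0.02 at day 16, whereas BLB1 falls to -3.37 and HPSE and CYP21A1 lie above zero at day 16.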

How the data were processed

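Labelled RNA of each pool was hybridised to 1 one-colour Agilent chicken array. The deposited raw files hold spot intensities as the scanner software gave them, not normalised. The authors made the deposited log2 values with R version 3.0.2 and limma by normexp background correction (offset 1), quantile normalisation and averaging of duplicate spots, and repeating these steps on the median intensities gave the same values to within 5e-09. Scanner flags (well above background, saturated) came from the intensity files, 0.0261 % of spots were flagged as outliers, and no column of per-sample values was without a sample.

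Kept were probes above a limit of 1.1 times the log2 value of the brightest dark corner spot, set for each array, in all arrays of 1 group or more, which is a reading of the study's filter. This left 25527 of 43603 probes. Line X pool 12 had the highest limit, at 10.7 against at most 8.5 on the other day 4 arrays. Of the kept probes, 8579 passed through line Y at day 4 and not through line X at day 4, and 1394 of these were called higher and 707 lower. Through both day 4 groups passed 7720 probes (497 higher and 669 lower), and 9224 (1186 and 1495) passed through other days. Symbols came from RefSeq accessions (annotation of assembly GRCg7b, names only) for 10458 probes and 4655 genes.

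Differences were fitted with limma 3.58.1 in R 4.3.3 over all 45 arrays in 6 groups, with contrasts between lines at day 4 and between days, and p-values were adjusted by Benjamini-Hochberg over the kept probes. The pipeline was tested on simulated data with independent errors. These held no slide effect and no deviation shared by pools of the same number, so the test does not bear on either. Pools are separate samples of 10 birds, and the number of arrays limits the precision. Named were up to 15 genes per direction with at least 2 kept probes, all called without overlap of pools and ranked by their smallest difference, up to 2 per direction from each of 23 lists of functions and 14 of markers with every probe called, the 5 genes with the widest range between probes, and up to 4 per direction whose every probe differed from both other days. The genes, lists and rules were chosen with earlier results of these data known. Deviations from the group means of pools numbered alike in both lines correlated at 0.102 to 0.261 in 7 of 7 pairs (mean 0.182, against -0.0262 for different numbers). Pool numbers were therefore also fitted as a block. Further alternatives were other filters, scaling by the 75th percentile, an offset of 50, a larger fold limit and leaving out each pool. Figures were drawn with matplotlib 3.10.9 in Python 3.11.15.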

Additional observations from a re-analysis of the deposited data

Results flagged for a closer look

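Among 176 sets of day 4 pools (88 named genes in each line, as the mean of a gene's kept probes), 10 held a pool that stood far from the others relative to their range. Chance alone marks about 1 set in 20 in this way. In line Y, pool 16 was low for AvBD10 at 7.34, with the others at 8.60 to 9.51, and pool 15 was low for KIFC1 at 9.18, with the others at 9.79 to 10.23. Pool 13 of line Y was high for SRL at 7.06 (others 6.39 to 6.60). Pool 11 of line Y was high for GATA5 at 13.08 (others 12.14 to 12.55) and for SLC11A2 at 9.77 (others 9.16 to 9.36), and low for PLA2G4A at 6.93 (others 7.26 to 7.35). Pool 12 of line Y was low for EXOC3 at 11.97 (others 12.27 to 12.35). In line X, pool 13 was low for IL22 at 3.87 (others 5.64 to 7.20), and pool 11 was high for DCTN5 at 9.99 (others 9.51 to 9.73) and for IBA57 at 6.63 (others 6.23 to 6.41).

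For 21 of the 88 named genes, the line difference at day 4 differed from that at day 0 in every kept probe (limma, adjusted p below 0.05 and a change beyond 1.3-fold). Over all kept probes, counted singly, 21.7 % differed in this way, so such a change was common and not particular to the named genes. As medians of the probes, the day 4 difference lay above the day 0 difference by 1.11 for CD8BP, 1.09 for GHRL, 0.85 for ME1 and 0.74 for EXOC3. It lay below it, with a change of -0.88 for KPNA1, -0.82 for HPSE, -0.75 for EDEM1, NUDT19 and UBE2J1, -0.73 for USP33, -0.72 for E2F6 and F2, -0.68 for TALDO1, -0.66 for SLC35C2, -0.65 for SRL, -0.64 for CDK5 and FAM234B, -0.62 for EXOC2, -0.60 for PLS1, -0.56 for SOD1 and -0.39 for GSTK1.

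For 31 of the 88 named genes the day 4 difference differed from the day 16 difference in the same sense, beside 35 % of all kept probes. The change from the day 16 to the day 4 difference was 2.13 for BLB1, 2.05 for E2F6, 1.69 for E2F4, 1.61 for F2, 1.57 for MRPL50, 1.26 for EDEM1 and KPNA1, 0.95 for AHR1A, 0.86 for PLA2G4A, 0.85 for SOD1, 0.83 for USP33, 0.82 for COLEC11, 0.81 for EXOC5, 0.75 for XCL1, 0.74 for DCTN5, 0.55 for EXOC3, 0.48 for TUBB1, 0.44 for PLS1 and 0.43 for CDH5. It was -1.72 for CYP21A1, -1.64 for AvBD10, -1.38 for HPSE, -1.15 for CDK5, -0.98 for ENS-1, -0.93 for CCR8, RAP1GAP3 and SLC35C2, -0.67 for IFITM5, -0.63 for ORC5, -0.58 for EXOC2 and -0.54 for UBE2J1. An effect of the slides on these changes cannot be told apart, since each line and age had a slide of its own.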

How the results depend on the processing

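The filter on dim probes, the limit on the difference and the way to combine probes moved the counts by over 1.5 times. With the limit required in all 45 arrays, 487 probes were higher and 659 lower, 6 and 16 genes were so in every probe, and the day 4 difference lay above and below that at day 0 for 399 and 851 probes and that at day 16 for 914 and 1298. Without a filter 4375 probes were lower, ITIH2 and TUBB1 changed sign (-0.0186 and -0.0328, since their dim probes then enter the median), and 19 of the 95 values tried for named genes lost their call. With the background flag of the scanner software in every pool of a day 4 group as the filter, 11 did (CHIR-IG1-5, COLEC11, ENS-1, EXOC2, IBA57, KPNA1, NCAPH, ORC5, PSME4, RAP1GAP3 and TRAP1), and 3516 probes were higher and 3329 lower. A log2 difference over 1 left 885 higher and 188 lower probes, and 2 and 6 genes. When the probes of a gene were averaged before the fit, 236 genes were higher and 128 lower. Leaving out the dark corner limit of line X pool 12, which lay above the 8.5 that the other day 4 arrays reached at most (a setting chosen after the data had been seen), changed no call of a named gene. With each day 4 pool left out, the probes higher in line Y ranged from 2974 to 3127 and those lower from 2707 to 2979, the genes from 38 to 48 and from 42 to 54. The probes above and below the day 0 difference ranged from 1939 to 2340 and from 2924 to 3489, and those for day 16 from 3597 to 3872 and from 4843 to 5252.

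Pool number as a replicate block gave 3130 higher and 2994 lower probes, and 43 and 54 genes, of which 40 and 46 were the same genes as without it. It ended the calls of ACTA2, AMY1A, GATA5, MRPL50 and STARD4 and changed no other call of a named gene. Pool 14 of line X has no partner in line Y and so drops out of the block fit. The differences of these genes were the same as with that pool left out, and the 2 settings are not separate checks of their size. Processed signals scaled to the 75th percentile ended 12 calls (ACTA2, AMY1A, BF2, DCTN5, EIF2AK3, EXOC2, EXOC3, FDFT1, MRPL50, PSME4, SLC35C2 and TNFRSF1A), an offset of 50 also 12 (AMY1A, CFI, CTLA4, DCTN5, EXOC2, EXOC3, ITIH2, NCAPH, PDCD2, PLA2G4A, RAP1GAP3 and SLC35C2) and the day 4 arrays fitted alone 2 (IL22 and SOCS1). Signal over background limits the dim genes. For probes not well above background in any pool of a line, only a lower bound of the fold is known.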
